A study of Homo sapiens with 12 samples.

Results

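Noncoding RNAs that stay in the nucleus or that carry small nucleolar RNAs (snoRNAs) were described in pancreatic ductal adenocarcinoma (PDAC) cells after silencing of the splicing factors QKI and RBFOX2. The 10 genes were MALAT1, NEAT1, GAS5, SNHG1, SNHG5, SNHG6, SNHG12, SNHG15, ZFAS1 and DANCR, taken by gene symbol from tables of 48114 genes. The symbols matched 9 of the 10, with MALAT1 in a joint entry with mascRNA, the small RNA cut from its end. No entry matched the symbol NEAT1. An entry without a symbol at chr11:65422798-65445599 (hg38) starts at the first base of NEAT1 in RefSeq on GRCh38.p14 and ends 59 bases beyond its last one. It was identified by these coordinates after the tables were read, is called the NEAT1 locus here and is kept out of the counts over the 9 genes. MALAT1 (chr11:65497738-65506516), ZFAS1 (chr20:49278178-49289260) and DANCR (chr4:52712394-52720697) lie on the plus strand, and GAS5 (chr1:173863899-173868882), SNHG1 (chr11:62851978-62855885), SNHG5 (chr6:85677009-85678733), SNHG6, SNHG12 (chr1:28578538-28586577) and SNHG15 (chr7:44983023-44986696) on the minus strand.

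PANC-1 cells, a PDAC line that the study uses as basal-like, received control siRNA (siCtrl), 40 nM of siRNA to QKI (siQKI) or 40 nM of siRNA to RBFOX2 (siRBFOX2) for 48 h. HPAF-II cells, a PDAC line of the classical type, received siCtrl. PolyA RNA was sequenced in 3 libraries per group. Each line is a single cell line and the labels do not say whether libraries came from separate cultures, so p-values measure the spread between these libraries, which may be technical. The values are gene counts that the authors normalized with DESeq2, here called normalized counts.

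The targeted genes were checked first. QKI had 24539, 25909 and 26150.4 normalized counts in siCtrl and 4629.7, 5020.2 and 5453 in siQKI libraries. RBFOX2 had 15355, 15424 and 15508 in siCtrl and 1712, 2171 and 2403 in siRBFOX2 libraries. RBFOX2 also differed in siQKI libraries (12520.0 to 12778, log2 fold change -0.29, SE 0.09, adjusted p = 0.0207, limma), a call lost under 7 of 18 other settings. Epithelial markers (CDH1, EPCAM, KRT8, KRT18 and KRT19) were present in both lines, and of 3 leukocyte markers PTPRC was at 0 in the siCtrl libraries of both, CD3E was at 0 in those of PANC-1 and at most 24.1 in HPAF-II, and CD14 was present in all, with 307 to 534 normalized counts in PANC-1 siCtrl libraries and between 343 and 646 in those of HPAF-II. The mesenchymal markers VIM, ZEB1 and CDH2 summed to 1871809.8 to 1907777 in PANC-1 siCtrl libraries and to 4538, 496 and 310.2 in HPAF-II replicates 1, 2 and 3, so that HPAF-II replicate 1 stands apart. Of the 5 epithelial markers 1 higher and 1 lower were called after QKI silencing and 1 higher and 3 lower after RBFOX2 silencing. The 3 mesenchymal markers gave 1 higher and 2 lower calls after QKI silencing and 1 higher and 0 lower after RBFOX2 silencing. Of all tested genes 33.0% and 26.5% were called. CDH1 rose in both (1.39 and 0.53 on the log2 scale), while KRT18 fell in both (-0.20 and -0.35) and KRT8 (-0.23) and KRT19 (-0.23) fell after RBFOX2 silencing. The collagen gene COL1A1, the tested member of 3 fibroblast markers, rose in both (0.99 and 0.42), and the part of these markers in the results was not tested.

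MALAT1 and NEAT1 are long RNAs retained in the nucleus. MALAT1 collects in nuclear speckles, where splicing factors are stored, and its mature end is a triple helix left when mascRNA is cut off. The long form of NEAT1 ends in the same way and is the scaffold of paraspeckles, while a shorter polyadenylated form shares its start. The other 8 genes are snoRNA hosts, whose introns release snoRNAs that guide the modification of ribosomal and spliceosomal RNA. Box C/D snoRNAs guide methylation and box H/ACA snoRNAs guide pseudouridylation. Spliced host RNAs are in several cases destroyed by nonsense-mediated decay.

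The snoRNA entries compared with their hosts further on are represented by 4 box C/D examples, from GENCODE v29 on hg38 (GRCh38). Capitals mark the box C core (GATGA, searched in the first 20 bases) and the box D (CTGA, the last match in the last 15 bases), on the strand of the snoRNA. Both motifs were found in 56.0% of the 384 GENCODE snoRNA transcripts of 60 to 100 bases. SNORD30 and SNORD28 lie in SNHG1, SNORD50B in SNHG5 and SNORD12B in ZFAS1.
SNORD30 (minus strand, chr11:62853663-62853732): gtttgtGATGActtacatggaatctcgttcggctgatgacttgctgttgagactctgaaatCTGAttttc
SNORD28 (minus strand, chr11:62854621-62854695): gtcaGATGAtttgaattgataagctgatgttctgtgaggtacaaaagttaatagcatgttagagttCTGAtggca
SNORD50B (minus strand, chr6:85677589-85677658): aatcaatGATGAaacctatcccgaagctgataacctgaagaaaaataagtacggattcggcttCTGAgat
SNORD12B (plus strand, chr20:49280319-49280409): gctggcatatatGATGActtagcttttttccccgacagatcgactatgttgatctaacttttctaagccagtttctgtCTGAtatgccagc

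The start sites of 4 hosts are shown because many genes of this class are known for a pyrimidine run at the start of their RNA. Those of the other hosts are not shown, so these 4 give no share for the class. Each window runs from 35 bases before to 25 bases from the RefSeq start (GRCh38.p14), on the strand of the gene. Capitals mark the longest run of at least 5 C or T bases that touches the stretch from 5 bases before to 10 bases after the start, and such a run was found at 40.9% of 35116 RefSeq starts. The runs measured 7 bases in SNHG1, 6 in SNHG5, 12 in SNHG12 and 7 in ZFAS1. The marked run began at base 5 from the start in SNHG1, where a shorter run over the start is not marked. It began at base -1 in SNHG5 and SNHG12 and at base -2 in ZFAS1.
SNHG1 (minus strand, chr11:62855861-62855920): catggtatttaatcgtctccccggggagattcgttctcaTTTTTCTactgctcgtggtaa
SNHG5 (minus strand, chr6:85678709-85678768): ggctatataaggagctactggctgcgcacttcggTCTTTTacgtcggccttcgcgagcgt
SNHG12 (minus strand, chr1:28581849-28581908): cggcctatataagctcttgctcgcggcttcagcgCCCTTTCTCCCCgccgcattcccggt
ZFAS1 (plus strand, chr20:49278607-49278666): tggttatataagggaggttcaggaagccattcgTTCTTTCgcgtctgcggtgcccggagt

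QKI is known to bind ACUAAC or ACUAAU and RBFOX proteins UGCAUG, so the DNA letters ACTAAC or ACTAAT and TGCATG were searched on the transcript strand of the longest GENCODE v29 transcript of each gene. Shares are given over long noncoding transcripts whose length lies within 20% of it, those of the gene itself included. The NEAT1 transcript of 22743 bases held 11 QKI and 11 RBFOX matches, and of 12 transcripts of like length 11 held a QKI and 12 an RBFOX match. Per kb it held 0.484 of each, where the median of these 12 transcripts was 0.192 for QKI and 0.253 for RBFOX. The MALAT1 transcript of 8708 bases held 1 QKI and 3 RBFOX matches, and 83.1% and 88.3% of 77 like transcripts held at least 1. Per kb these were 0.115 and 0.345, where the medians of like transcripts were 0.286 and 0.345. Its QKI match lay within chr11:65506174-65506203, past the small RNA annotated at chr11:65506117-65506173 and so past the mature end of MALAT1. These transcripts have 1 exon in SNHG12, 2 in SNHG15, 5 in SNHG1 and 8 in GAS5. They may keep introns to unlike degrees, and whether a match lies in a spliced host RNA was not tested. Among the hosts an RBFOX match was found in SNHG15 (1) alone, where 59.4% of transcripts of like length held at least 1. QKI matches numbered 2 each in GAS5 and DANCR and 1 each in SNHG1 and SNHG5, where 36.3%, 23.5%, 51.4% and 27.0% of transcripts of like length held at least 1. The SNHG5 match runs past the end of the entry that gave its counts, which stops at chr6:85677009 on the minus strand. The windows below, with the match in capitals, give the genes whose levels are described first, with an RBFOX and a QKI match of NEAT1, an RBFOX match of MALAT1 and the QKI match of SNHG1 and of SNHG5.
NEAT1 locus (plus strand, chr11:65422971-65423000): agtggggcaggcTGCATGgaaaatatccgc
NEAT1 locus (plus strand, chr11:65425195-65425224): gcaaacagacaaACTAACaaacaaaaattg
MALAT1 (plus strand, chr11:65498848-65498877): tttaagtatttcTGCATGtgtagtttgcat
SNHG1 (minus strand, chr11:62853811-62853840): tctctaggtactACTAACcaataacctgct
SNHG5 (minus strand, chr6:85676994-85677023): aatggaaaatccACTAACcagccttgtaat

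The NEAT1 locus rose after silencing of either factor. It had 20726, 22313 and 23728 normalized counts in siCtrl, 35959, 38165 and 39125 in siQKI and 34084, 40281 and 43849 in siRBFOX2 libraries. Every knockdown library lay above every siCtrl library. The mean was 169.6% of the siCtrl mean after QKI silencing (log2 fold change 0.76, SE 0.07, adjusted p = 1.47e-06, limma) and 177% after RBFOX2 silencing (0.82, SE 0.07, adjusted p = 1.49e-06, limma). Both comparisons use the same siCtrl libraries. Between the knockdowns the difference was -0.06 on the log2 scale (95% interval -0.21 to 0.10, adjusted p = 0.681), so a difference in size was not detected. Both rises passed the threshold under all 18 alternative settings, with log2 fold changes of 0.71 to 0.83 and 0.74 to 0.92. The short and the long form of NEAT1 share their start and were not measured apart.

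The paraspeckle proteins that assemble on NEAT1 were lower more often than higher. Of 12 tested, 7 were lower and 0 higher after QKI silencing, where 18.1% of all tested genes were lower, and 5 were lower and 1 higher after RBFOX2 silencing, where 14.5% were lower. With libraries rescaled to the same total these counts were 4 lower and 2 higher, and 2 lower and 1 higher. Those of all genes were then 3049 lower and 4151 higher, and 2290 lower and 3454 higher. The median log2 fold change of the list was -0.13 and -0.04, and that of all tested genes 0.03 and 0.01. After QKI silencing NONO (-0.34, SE 0.03), HNRNPH3 (-0.27, SE 0.05) and NUDT21 (-0.22, SE 0.04), all RNA-binding proteins, led the list by log2 fold change. After RBFOX2 silencing SFPQ, the partner of NONO (-0.28, SE 0.04), NUDT21 (-0.20, SE 0.04) and PSPC1 (0.16, SE 0.05) led it. Between the knockdowns 2 were higher and 4 lower in siQKI libraries, where 9.93% and 11.6% of all genes were, led by TAF15 (-0.31, SE 0.06) and NONO (-0.31, SE 0.03).

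MALAT1 did not pass the test in any comparison, and its standard error was the largest of the 10. It had 193979, 212457 and 215134 normalized counts in siCtrl and 270367, 282047 and 346366 in siQKI libraries, all siQKI above all siCtrl libraries. The siQKI mean was 145% of siCtrl, with a log2 fold change of 0.52 (SE 0.21, adjusted p = 0.0652, limma). Replicates 1, 2 and 3 of siRBFOX2 had 303769.5, 224258 and 126117, which lie above, just above and below all siCtrl libraries. Their SD was 40.8% of the mean (n = 3), against 5.56% in siCtrl and 13.7% in siQKI libraries. The log2 fold change of siRBFOX2 was -0.02 (SE 0.21, 95% interval -0.46 to 0.43, adjusted p = 0.970). Without siRBFOX2 replicate 3 it was 0.33, adjusted p = 0.0417, and without replicate 1 it was -0.30, adjusted p = 0.235. All libraries share an estimate of the spread, and the siQKI difference of MALAT1 passed the threshold without siRBFOX2 replicate 3 (adjusted p = 0.000906), without siRBFOX2 replicate 1 (adjusted p = 0.0140) and with only siQKI and siCtrl libraries in the fit (adjusted p = 9.54e-05), with adjusted p from 9.54e-05 to 0.251 over all settings. It also passed with upper-quartile rescaling (adjusted p = 0.0430) and with libraries rescaled to the same total (adjusted p = 0.0403). Between the knockdowns the difference was 0.54, SE 0.21, adjusted p = 0.0794, and 0.82, adjusted p = 0.00305 without siRBFOX2 replicate 1.

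TALAM1, the antisense RNA whose entry overlaps MALAT1, was taken by position after the tables were read. It had 1117, 799 and 461 normalized counts in siRBFOX2 replicates 1, 2 and 3, the order of MALAT1 in these libraries. It stood at 0.356% to 0.368% of the MALAT1 value in siRBFOX2, 0.372% to 0.481% in siCtrl and 0.309% to 0.448% in siQKI libraries, and at 0.618% to 0.813% in HPAF-II libraries. Strand use in the counting is not given in the sources used here, so reads of these overlapping genes cannot be told apart. RMRP, RPPH1, RN7SK, RN7SL1, RN7SL2, RN7SL3 and TERC, which like MALAT1 are made without a polyA tail, summed to 72504, 33647 and 54291 in siRBFOX2 replicates 1, 2 and 3, so that the lowest sum was not in the library with the lowest MALAT1. The sums were 48691 to 59701 in siCtrl and 56415 to 69177 in siQKI libraries. None of these 7 RNAs was called against siCtrl (limma), and 0 had an unadjusted p under 0.05 in either knockdown. The part of such RNA in the MALAT1 values was not tested.

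**Figure D1:**
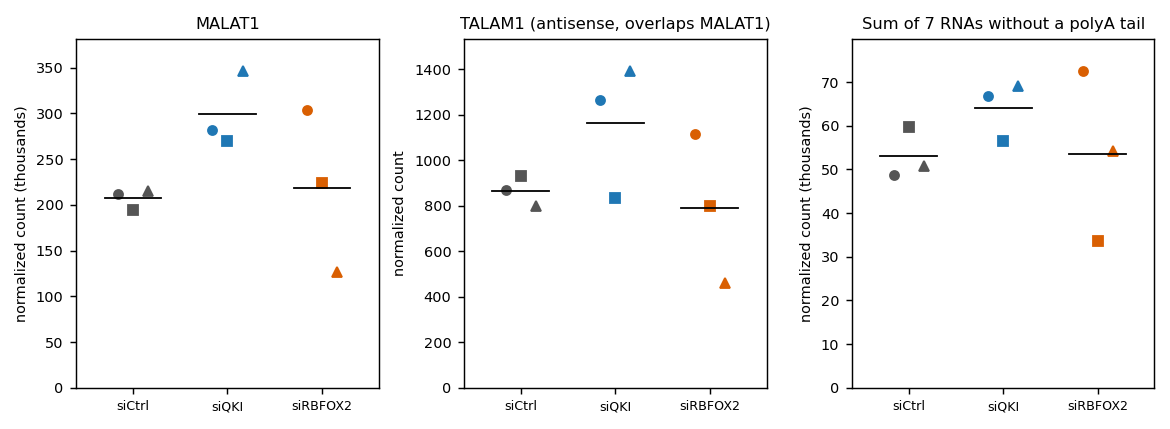
MALAT1, TALAM1 and the summed RNAs made without a polyA tail (normalized counts) in the PANC-1 libraries of each siRNA group, with points for replicates 1, 2 and 3 and a line at the mean. In siRBFOX2 replicates 1, 2 and 3 MALAT1 was 303769.5, 224258 and 126117 and TALAM1 1117, 799 and 461, while the summed RNAs were lowest in replicate 2.

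Of 9 nuclear speckle proteins and factors that act at the MALAT1 end, 1 higher and 1 lower were called after QKI silencing and 1 higher and 3 lower after RBFOX2 silencing, where 33.0% and 26.5% of all genes were called. METTL16, which binds the MALAT1 triple helix, fell after RBFOX2 silencing (-0.46, SE 0.07) and was higher in siQKI than in siRBFOX2 libraries (0.43, SE 0.07, adjusted p = 0.000207). PNN, a speckle protein, rose in both (0.12, SE 0.04, and 0.17, SE 0.04). ELAC2, an enzyme that trims tRNA ends, fell in both (-0.17, SE 0.04, and -0.15, SE 0.04). With libraries rescaled to the same total, 2 and 1 were higher and lower after QKI silencing and 1 and 1 after RBFOX2 silencing.

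Among the 9 genes matched by symbol, QKI silencing gave 1 call (SNHG5, higher), where 33.0% of 22544 tested genes were called, 3362 higher and 4070 lower. Upper-quartile rescaling turned that split of all genes to 4225 higher and 3057 lower, and rescaling to the same total to 4151 and 3049. RBFOX2 silencing gave 3 calls, with SNHG1 and SNHG5 higher and ZFAS1 lower, where 26.5% of all genes were called, 2713 higher and 3272 lower, or 3454 and 2290 with libraries rescaled to the same total. Between the knockdowns 1 was called (SNHG1, lower in siQKI), where 21.5% of all genes were, 9.93% higher and 11.6% lower, or 2764 higher and 2230 lower after upper-quartile rescaling against 2238 and 2606. For siQKI the share of the 9 genes called lay below that of all genes, of which 14.9% were called higher, and for siRBFOX2 and between the knockdowns the counts are close to what these shares give. Groups did not overlap for 3 of the 9 genes in siQKI against siCtrl (44.7% of all genes, 21.6% above and 23.0% below), for 2 in siRBFOX2 against siCtrl (37.9%, with 18.2% above and 19.7% below) and for 1 between the knockdowns (35.2%, with 17.1% above and 18.1% below). The median log2 fold changes of the 9 genes were -0.01, 0.02 and -0.02, beside 0.03, 0.01 and 0.01 for all tested genes.

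**Figure D2:**
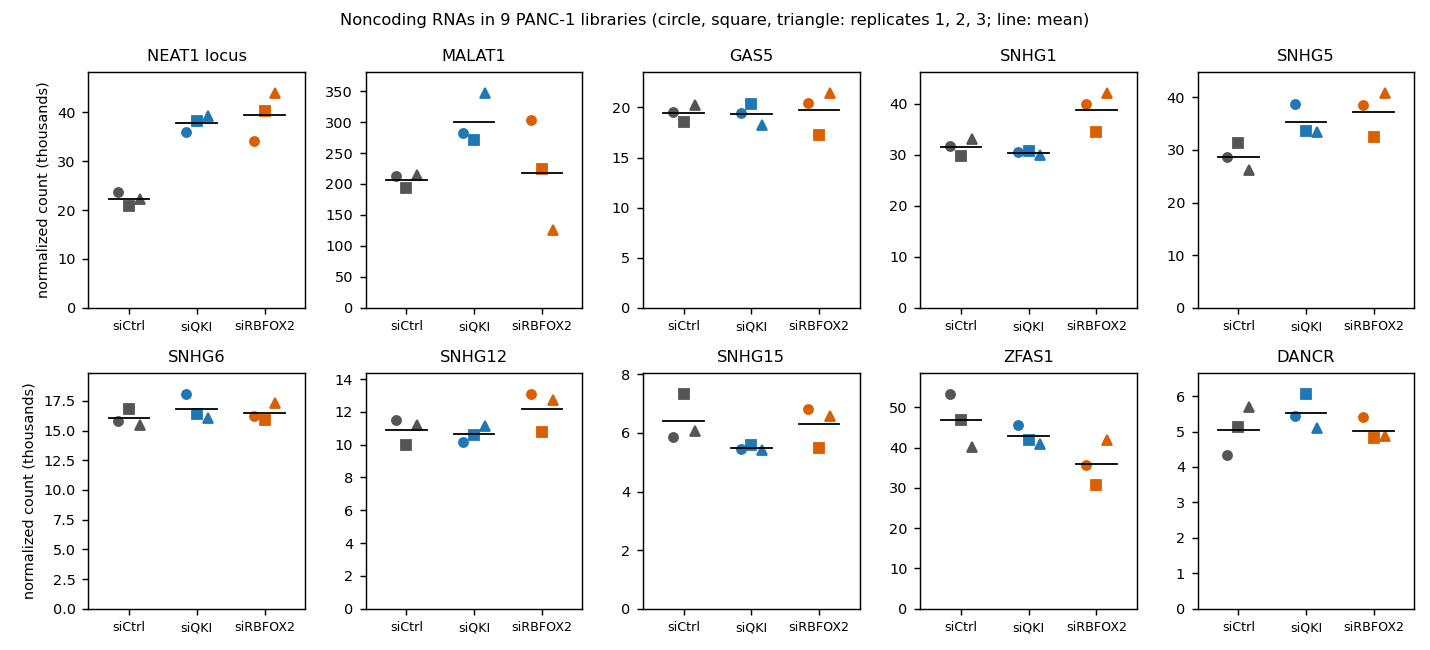
Normalized counts (axes from 0) of the NEAT1 locus and the 9 genes matched by symbol in the 9 PANC-1 libraries, with points for replicates 1, 2 and 3 and a line at each mean. The NEAT1 locus is at most 23728 in siCtrl and at least 34084 in knockdown libraries, and MALAT1 spreads from 126117 to 303769.5 within the siRBFOX2 group.

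SNHG5, the host of SNORD50A and SNORD50B, rose in both knockdowns. It had 26119, 28636 and 31251 normalized counts in siCtrl, 33361, 33642 and 38780.3 in siQKI and 32362, 38472 and 40743 in siRBFOX2 libraries. Neither knockdown overlapped siCtrl. The log2 fold changes were 0.30 (SE 0.08, adjusted p = 0.0107, limma) and 0.37 (SE 0.08, adjusted p = 0.00333), and between the knockdowns -0.07 (95% interval -0.25 to 0.10). The siQKI call was lost without siCtrl replicate 3 (0.23, adjusted p = 0.0612) and without siQKI replicate 1 (0.23, adjusted p = 0.0593), with adjusted p from 0.00136 to 0.0997 over all settings. Without a mean-variance trend neither call held (adjusted p = 0.0997 for siQKI and adjusted p = 0.0644 for siRBFOX2).

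SNHG1, the host of a cluster of box C/D snoRNAs, rose after RBFOX2 silencing and differed between the knockdowns. It had 29769, 31746 and 33114 normalized counts in siCtrl, 34450.3, 39899 and 42034 in siRBFOX2 and 29962, 30536 and 30807 in siQKI libraries. The siRBFOX2 libraries lay above all others, and the siQKI libraries lay within the siCtrl range. The log2 fold change was 0.29 for siRBFOX2 (SE 0.06, adjusted p = 0.00216, limma) and -0.05 for siQKI (95% interval -0.18 to 0.08, adjusted p = 0.590). Tested directly, siQKI against siRBFOX2 gave -0.35, SE 0.06, adjusted p = 0.000755. Both calls held under all 18 alternative settings, with adjusted p of up to 0.0472 and 0.0332.

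ZFAS1, the host of SNORD12, SNORD12B and SNORD12C, was lower after RBFOX2 silencing. It had 40259.9, 46905 and 53240.1 normalized counts in siCtrl, 30606, 35691 and 41821 in siRBFOX2 and 40919, 41936 and 45569.8 in siQKI libraries. The groups overlapped, since the highest siRBFOX2 library lay above the lowest siCtrl library. The log2 fold change was -0.38 for siRBFOX2 (SE 0.10, adjusted p = 0.0107, limma) and -0.12 for siQKI (95% interval -0.33 to 0.09). Tested directly, siQKI against siRBFOX2 gave 0.26 (adjusted p = 0.0832, limma), which was not called and passed under 2 of 18 other settings. The siRBFOX2 call was lost without siCtrl replicate 1 (-0.28, adjusted p = 0.0568), without siRBFOX2 replicate 2 (-0.27, adjusted p = 0.0557) and without a mean-variance trend (-0.38, adjusted p = 0.112). ZNFX1, a helicase gene on the other strand whose entry overlaps the start of ZFAS1, had 5460.0 to 6069 in siCtrl and 6347 to 7135 in siRBFOX2 libraries, and was higher (0.24, SE 0.08, adjusted p = 0.0261). In siQKI libraries ZNFX1 had 4182 to 5082 and was lower (-0.29, SE 0.08, adjusted p = 0.00729).

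SNHG15, SNHG12, GAS5, SNHG6 and DANCR did not pass the test in any comparison of PANC-1 libraries. SNHG15, the host of SNORA9, had 5857, 6059 and 7319 normalized counts in siCtrl, 5407, 5452 and 5599.7 in siQKI and 5495, 6585 and 6823 in siRBFOX2 libraries. Its siQKI libraries lay below all siCtrl libraries, with a log2 fold change of -0.22 (SE 0.09, adjusted p = 0.0712). It passed the threshold without siCtrl replicate 1 (-0.28, adjusted p = 0.0381), without siRBFOX2 replicate 2 (adjusted p = 0.0339) and with only siQKI and siCtrl libraries in the fit (adjusted p = 0.0413). SNHG12, the host of SNORD99 and of box H/ACA snoRNAs, had 9973, 11215 and 11520.1 in siCtrl, 10158, 10589.8 and 11124 in siQKI and 10746, 12739 and 13067 in siRBFOX2 libraries. Its log2 fold change for siRBFOX2 was 0.16 (SE 0.07, adjusted p = 0.135), and 0.25, adjusted p = 0.0135 without siRBFOX2 replicate 2. With libraries rescaled to the same total it was 0.21 (adjusted p = 0.0366, limma). The groups of SNHG12 overlapped in each comparison. TRNAU1AP, a gene of selenocysteine incorporation whose entry overlaps the end of SNHG12, had 10405 to 10675 in siCtrl and 12629 to 13996 in siQKI libraries and rose (0.35, SE 0.05, adjusted p = 7.57e-05).

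GAS5, a host named for its rise on growth arrest, stayed between 17289.5 and 21399.8 normalized counts in the 9 PANC-1 libraries. Its 95% intervals were -0.15 to 0.14 for siQKI and -0.13 to 0.16 for siRBFOX2 on the log2 scale. SNHG6, the host of SNORD87, had 15432 to 16811 in siCtrl, 16044 to 18053 in siQKI and 15924 to 17308 in siRBFOX2 libraries, with intervals of -0.05 to 0.19 and -0.07 to 0.16. DANCR, the host of SNORA26, had 4337 to 5683, 5087 to 6049.7 and 4808 to 5416, with intervals of -0.06 to 0.33 and -0.19 to 0.20. The intervals of DANCR were wider than those of GAS5 and SNHG6.

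**Figure D3:**
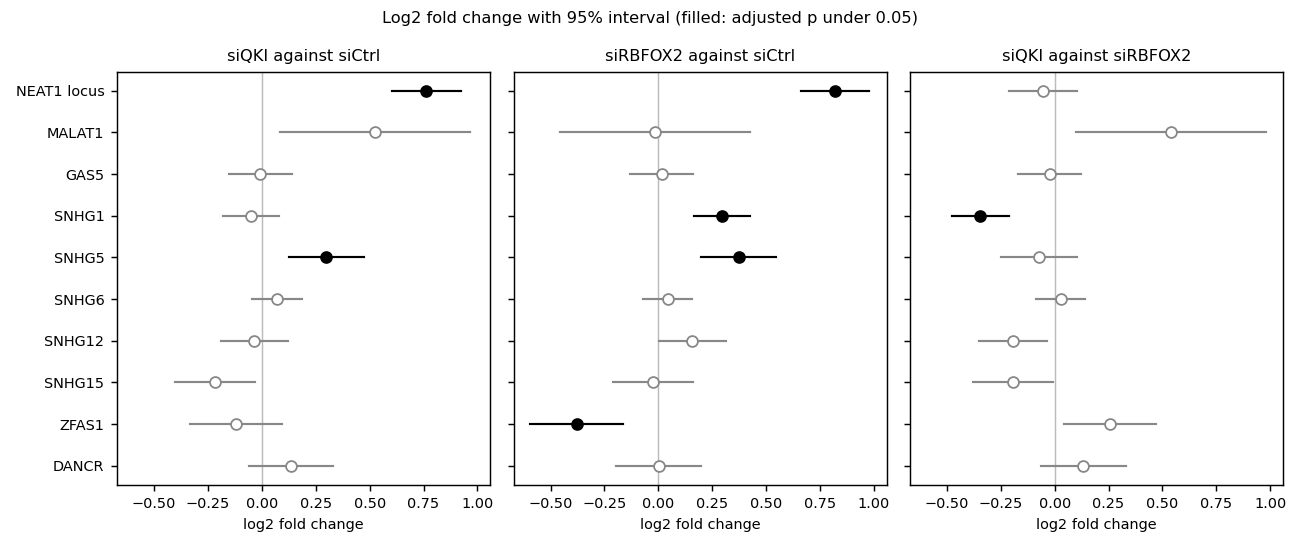
Log2 fold changes (points) with 95% intervals (lines) of the NEAT1 locus and the 9 genes in the comparisons of PANC-1 libraries, with calls at an adjusted p under 0.05 marked (limma, 3 libraries per group). The NEAT1 locus is at 0.76 and 0.82 against siCtrl and at -0.06 between the knockdowns, SNHG1 is called for siRBFOX2 (0.29) and between the knockdowns (-0.35), and the MALAT1 intervals are the widest of the 10.

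The tables hold entries of their own for 17 snoRNAs that lie inside 7 of the hosts, taken by position after the tables were read. Reads from polyA libraries at these places may include host RNA, which was not tested. After RBFOX2 silencing 2 were called, both higher, where 2713 of 22544 genes were called higher, and 9 of the 17 lay above siCtrl without overlap, where 18.2% of all genes did. After QKI silencing 2 were called, both lower, where 18.1% of all genes were called lower, and 5 lay below without overlap, where 23.0% of all genes did. Between the knockdowns 5 were called, all lower in siQKI, where 11.6% of all genes were called lower, and 10 lay below without overlap, where 18.1% of all genes did. The snoRNAs of a host share its transcript, and 7 of the 17 lie in GAS5, so they are not independent.

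In SNHG1 the host and SNORD30 were both called higher in siRBFOX2 libraries. SNORD30, shown above, had 299.8, 410.5 and 479.6 normalized counts in siCtrl, 654, 697 and 728 in siRBFOX2 and 371, 387 and 502 in siQKI libraries (0.83, SE 0.19, adjusted p = 0.00461 for siRBFOX2, limma). As a share of SNHG1 it stood at 1.01% to 1.51% in siCtrl and 1.73% to 1.90% in siRBFOX2 libraries, without overlap. SNORD28 had 448, 528 and 592 in siCtrl and 601, 722 and 823 in siRBFOX2 libraries, above without overlap but not called (0.45, SE 0.19, 95% interval 0.04 to 0.86). Its share of SNHG1 overlapped, with 1.41% to 1.79% in siCtrl and 1.75% to 1.96% in siRBFOX2 libraries. Against siRBFOX2, siQKI libraries were lower in SNORD30 (-0.73, SE 0.19, adjusted p = 0.0118) and in SNORD28 (-0.78, SE 0.19, adjusted p = 0.00795). The SNORD30 call between the knockdowns was lost without siQKI replicate 3 (-0.65, adjusted p = 0.0521).

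In GAS5, which was not called, SNORD78 had 468, 492 and 543 normalized counts in siCtrl and 252, 291 and 389.8 in siQKI libraries (-0.71, SE 0.19, adjusted p = 0.00869, limma), and SNORD75 had 109, 126 and 156 and 53.5, 62.8 and 65.0 (-1.09, SE 0.36, adjusted p = 0.0285). SNORD44 and SNORD78 were also lower in siQKI than in siRBFOX2 libraries (-0.39, SE 0.12, adjusted p = 0.0372, and -0.61, SE 0.19, adjusted p = 0.0296), calls lost under 8 and 5 of 18 settings. The SNORD75 call was lost under 5 of 18, among them without siCtrl replicate 2 (-0.95, adjusted p = 0.109).

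SNORD87, in SNHG6, had 258, 282 and 284 normalized counts in siCtrl, 409.7, 436 and 517 in siRBFOX2 and 161, 254 and 311 in siQKI libraries. It was called higher for siRBFOX2 (0.72, SE 0.24, adjusted p = 0.0367, limma) while SNHG6 differed by 0.04, but the call was lost with any 1 siCtrl or siRBFOX2 library left out, with adjusted p of up to 0.130 over all settings. It was also lower in siQKI than in siRBFOX2 libraries (-0.95, SE 0.24, adjusted p = 0.00919), a call kept under all 18. SNORD50A and SNORD50B in SNHG5, which rose, were not called in either knockdown. SNORD50A stood at 0.321% to 0.326% of SNHG5 in siCtrl, 0.132% to 0.217% in siQKI and 0.191% to 0.230% in siRBFOX2 libraries. SNORD50B stood at 0.782% to 1.25% in siCtrl, 0.520% to 0.754% in siQKI and 0.619% to 0.943% in siRBFOX2 libraries, where siRBFOX2 overlapped siCtrl. These shares are divided by SNHG5, which rose. The log2 fold changes for siQKI and siRBFOX2 were -0.52 and -0.28 for SNORD50A and -0.28 and 0.00 for SNORD50B.

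**Figure D4:**
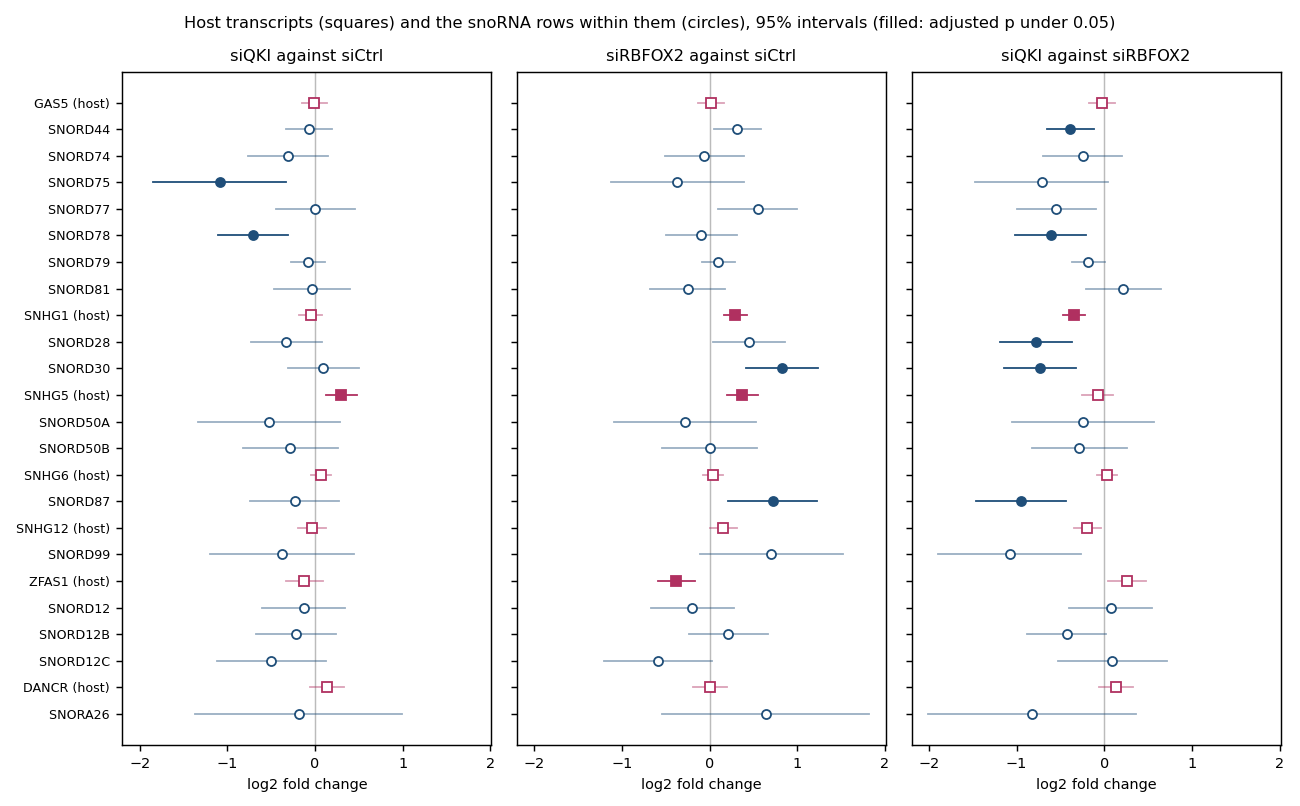
Log2 fold changes with 95% intervals of 7 hosts and the 17 snoRNA entries inside them in the comparisons of PANC-1 libraries, with calls at an adjusted p under 0.05 marked. SNHG1 (0.29), SNORD28 (0.45) and SNORD30 (0.83) lie above 0 for siRBFOX2, and SNORD75 (-1.09) and SNORD78 (-0.71) lie below 0 for siQKI while GAS5 is at -0.01.

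Other snoRNA hosts were counted from lists, beside the 22544 tested genes. Of all genes 33.0% were called after QKI silencing (14.9% higher and 18.1% lower) and 21.5% between the knockdowns (9.93% higher and 11.6% lower). For RBFOX2 silencing it was 26.5%, with 2713 genes higher and 3272 (14.5%) lower. With libraries rescaled to the same total, 4151 genes were higher and 3049 lower after QKI silencing. The same rescaling gave 3454 higher and 2290 lower after RBFOX2 silencing. Without rescaling, the shares of both host lists called in each knockdown lay near those of all genes. Of 22 other noncoding hosts tested, 2 higher and 5 lower were called after QKI silencing (3 and 3 with libraries rescaled to the same total), led by SNHG20 (-0.37, SE 0.03), EPB41L4A-AS1 (0.27, SE 0.08) and SNHG3 (-0.26, SE 0.04). After RBFOX2 silencing 5 higher and 2 lower were called (7 and 1 rescaled), led by SNHG19 (0.96, SE 0.17), SNHG26 (0.64, SE 0.21) and SNHG11 (0.39, SE 0.12). Between the knockdowns 1 higher and 7 lower were called, and SNHG19 again had the largest difference (-0.85, SE 0.17, adjusted p = 0.00240). The median log2 fold changes of this list were -0.01, 0.19 and -0.15. Of 35 protein-coding hosts, 1 higher and 9 lower were called after QKI silencing (2 and 7 rescaled), 2 higher and 8 lower after RBFOX2 silencing (4 and 4 rescaled) and 2 higher and 5 lower between the knockdowns. SNHG3 shares a joint entry with RCC1, a protein-coding host, so that this entry counts in both lists.

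Proteins that bind or assemble snoRNAs were counted beside 18.1% of all genes lower and 14.9% higher after QKI silencing, 14.5% lower after RBFOX2 silencing, and 9.93% higher and 11.6% lower between the knockdowns. Rescaling to the same total gave 4151 higher and 3049 lower of all genes after QKI silencing, and 3454 and 2290 after RBFOX2 silencing. Of 16, 1 higher and 10 lower were called after QKI silencing (1 and 6 with libraries rescaled to the same total), 0 higher and 7 lower after RBFOX2 silencing (1 and 5 rescaled) and 2 higher and 3 lower between the knockdowns. ZNHIT6, a box C/D assembly factor, fell in both (-0.64, SE 0.05, and -0.35, SE 0.05), as did DKC1, the pseudouridine synthase of box H/ACA particles and itself a snoRNA host (-0.43, SE 0.05, and -0.32, SE 0.05). Of 10 nonsense-mediated decay factors, 1 higher and 1 lower were called after QKI silencing, 2 higher and 0 lower after RBFOX2 silencing and 0 higher and 2 lower between the knockdowns, where 33.0%, 26.5% and 21.5% of all genes were called. SMG5, a decay factor, rose in both (0.19, SE 0.04, and 0.23, SE 0.04).

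HPAF-II and PANC-1 siCtrl libraries were compared without a test, since their tables were normalized apart. The values of a library were scaled to sum to 1000000 and are called rescaled counts. The NEAT1 locus had 253, 291 and 311 rescaled counts in HPAF-II and 59.5, 64.6 and 70.0 in PANC-1 libraries, 4.40-fold higher in HPAF-II. GAS5 had 163, 183 and 194 against 53.2, 57.7 and 58.5 (3.18-fold). The HPAF-II libraries of both lay far above those of PANC-1. SNHG6 had 106, 109.9 and 121 against 44.7, 46.7 and 48.3 (2.41-fold), and ZFAS1 had 236, 274 and 356 against 117, 135 and 157 (2.12-fold). Of the 9 genes, GAS5, SNHG6 and ZFAS1 (3) were at least 2-fold higher in HPAF-II and none lower, where 52.4% of 24673 expressed genes were at least 2-fold apart, 27.2% higher and 25.2% lower. On the deposited values without rescaling 1 of the 9, GAS5, was at least 2-fold apart. Without HPAF-II replicate 1, which holds more mesenchymal marker RNA, the number stayed at 3. HPAF-II libraries also lay above all PANC-1 libraries for SNHG1 (log2 ratio 0.35) and SNHG5 (0.26), so that 5 of the 9 did not overlap, where 63.7% of all genes did not, 32.0% above and 31.7% below. On the deposited values both overlapped between the lines, with 30968, 33274 and 35290.4 normalized counts of SNHG1 and 25129.7, 29065 and 30573 of SNHG5 in HPAF-II.

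**Figure D5:**
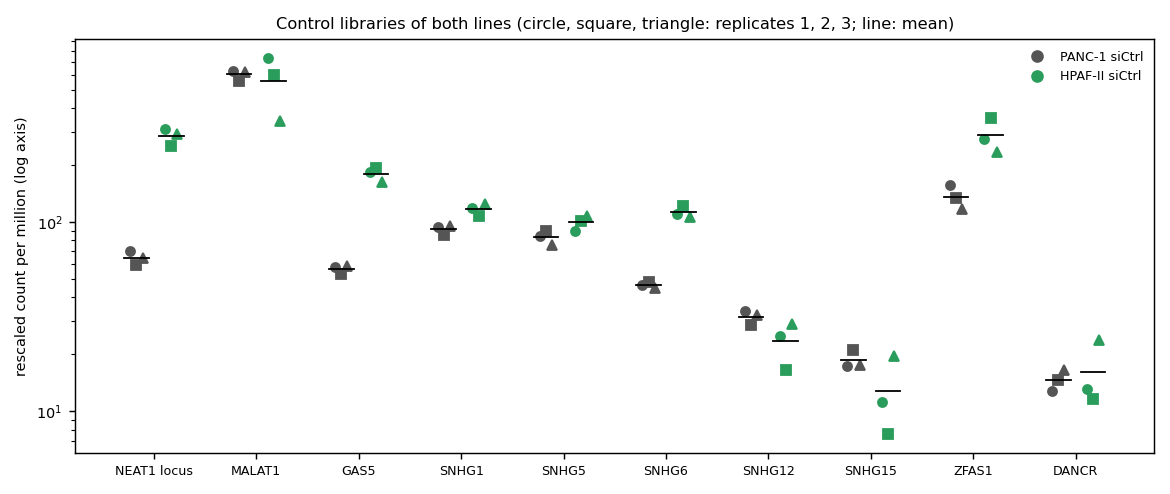
Rescaled counts (log axis, total of 1000000 per library) of the NEAT1 locus and the 9 genes in PANC-1 and HPAF-II siCtrl libraries, with points for replicates 1, 2 and 3 and a line at each mean. HPAF-II points lie above PANC-1 points for the NEAT1 locus, GAS5, SNHG1, SNHG5, SNHG6 and ZFAS1, and overlap them for MALAT1, SNHG12, SNHG15 and DANCR.

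MALAT1, SNHG12, SNHG15 and DANCR overlapped between the lines. MALAT1 had 342, 599.8 and 733 rescaled counts in HPAF-II and 557, 623 and 627 in PANC-1 libraries (log2 ratio -0.11), and SNHG15 had 7.60, 11.2 and 19.6 against 17.3, 17.5 and 21.0 (-0.54). SNHG12 had 16.5, 25.1 and 29.1 against 28.6, 32.5 and 34.0 (-0.43), and DANCR 11.7, 13.1 and 23.8 against 12.8, 14.7 and 16.5 (0.15). HPAF-II replicate 3 had the lowest MALAT1 and the highest SNHG12, SNHG15 and DANCR values of its group. Of the 17 snoRNA entries, SNORA26 in DANCR was at least 2-fold higher in HPAF-II (5.54-fold), and SNORD12B and SNORD12C in ZFAS1 and SNORD50A and SNORD50B in SNHG5 were at least 2-fold lower. SNORD12B had 0.242, 0.251 and 0.371 against 0.704, 0.758 and 0.769, while its host ZFAS1 was higher in HPAF-II.

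The lists were compared between the lines beside 27.2% of expressed genes at least 2-fold higher and 25.2% at least 2-fold lower in HPAF-II. Of 12 paraspeckle proteins 2 (PSPC1 and TAF15) were higher and none lower. Without overlap 10 lay above and 1 (NONO) below, where 32.0% and 31.7% of expressed genes did. Of 23 other noncoding hosts 7 were higher and 6 lower, of 35 protein-coding hosts 4 and 1, and of 16 snoRNA particle proteins 2 and 3. Of 9 speckle and MALAT1 end factors 1 was higher and 1 lower, of 10 decay factors 2 and 1, and of the 7 RNAs without a polyA tail 1 and 3. SNHG14, one of the noncoding hosts, was listed at 0 in HPAF-II libraries. All 5 epithelial markers were higher and all 3 mesenchymal markers lower in HPAF-II, and 2 of 3 fibroblast markers were higher, whose part in these differences was not tested.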

How the data were processed

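PolyA RNA of PANC-1 cells (siCtrl, siQKI and siRBFOX2) and of HPAF-II cells (siCtrl) was sequenced, with 3 libraries per group as the labels give them. The authors deposited signal values, which are counts per gene scaled by DESeq2 size factors, and scaled each line apart. The submitters' processing notes name FastQC, STAR 2.7.5a, SAMtools, Picard, DESeq2 and hg38, and the genes are those of FAST DB. The study's list of resources names featureCounts without saying that it made these tables, and whether reads or pairs were counted, and by strand, is not given in the sources used here. The values of a library are whole multiples of a step, and 82.1% to 84.8% of low values are multiples of 3 steps, so a step was not taken as a read, the depth in fragments is unknown and no count test was run. Totals were 292248837 to 376192091 steps in PANC-1 and 226697015 to 309720537 steps in HPAF-II libraries.

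The 9 PANC-1 libraries entered a single limma fit (limma 3.58.1, R 4.3.3, two-sided, with a mean-variance trend) of log2 values after addition of 1, which covered 22544 genes whose mean reached 10. All 9 genes passed this filter. Benjamini-Hochberg adjustment ran over all tested genes, with a threshold of 0.05, and the median standard error was 0.14. The code of the fit was checked on simulated data with independent normal noise, which does not measure its error rates on these libraries. HPAF-II and PANC-1 values were rescaled to 1000000 per library and compared as log2 ratios of means with a pseudocount of 0.01, without a test. Tables were handled in Python 3.11.15 with pandas 2.3.3 and drawn with matplotlib 3.10.9. No replicate block was used, since the study's methods name no pairing. Same-numbered libraries did not deviate together (r from -0.0325 to 0.0235).

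The genes, the lists and the tests were chosen with earlier results of these data known. All 10 genes and both targets are named, and from each list at most 3 genes with the largest log2 fold change among those called. Overlapping genes and snoRNAs were taken by position after the tables were read, and genes named for the difference between lines, as well as cell markers, were named after their values were seen.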

Additional observations from a re-analysis of the deposited data

How the results depend on the processing

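The number of the 9 genes called depended on the setting. For siQKI, where 1 was called, it was 2 with upper-quartile rescaling, 2 with libraries rescaled to the same total, 0 without a mean-variance trend, 3 with only siQKI and siCtrl libraries, and 0 to 2 with a library left out (0 without siCtrl replicate 3 or siQKI replicate 1). For siRBFOX2, where 3 were called, it was 1 without a mean-variance trend and 2 to 4 with a library left out. Between the knockdowns, where 1 was called, it was 2 with the replicate block, 2 with only the libraries compared, and 1 to 3 with a library left out (3 without siRBFOX2 replicate 2). Between the lines, where 3 were at least 2-fold apart, it was 1 on the deposited values and 2 to 3 with a library left out. The log2 fold change of MALAT1 for siRBFOX2 was -0.30 to 0.33 with a library left out, and 0.33 without siRBFOX2 replicate 3. With libraries rescaled to the same total SNHG12 was called in addition for siRBFOX2 (0.21, adjusted p = 0.0366, limma). With the replicate block SNHG12 was also called between the knockdowns (adjusted p = 0.0367), the numbers of calls for siQKI and siRBFOX2 were 1 and 3, and of 9 libraries 3 correlated best with one of their own number. The causes were not tested. Of 1785 values recomputed under other settings, 1696 were taken as unchanged. These kept their side of the threshold, moved by less than the spread or, as counts, stayed within a set ratio. Uncalled values whose sign changed were among them. The siQKI count of the 9 genes moved under 10 of 18 settings. A count test in edgeR was planned and not run, because a step of the deposited values could not be taken as a read. The depth in fragments is unknown, so precision comes from the libraries alone.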
